A study of Mus musculus with 8 samples.

Results

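The contactins are the 6 genes Cntn1, Cntn2, Cntn3, Cntn4, Cntn5 and Cntn6, of 32285 genes in the expression tables. They were selected by gene symbol, and the family was singled out because Cntn5 was lower in Tbx1+/- than in WT granule neuron progenitors (GNPs), so that this contrast, and the level of each gene by cell type, are given as descriptions. Nuclei of the paraflocculus and flocculus (PF/F), the lateral cerebellar lobes beside the petrous temporal bone, were profiled by single-nucleus RNA sequencing in Tbx1+/- mice, which are heterozygous for the transcription factor gene Tbx1, and in WT littermates at postnatal day 5.5. Each genotype had 2 libraries, and each library pooled tissue of 5 mice. The study describes 2 batches of animals, and the replicate numbers of the labels, which do not name a batch, were taken to mark them. The libraries are accordingly called WT 1, Tbx1+/- 1, WT 2 and Tbx1+/- 2. Another 4 libraries, from petrous bone of the same groups, served only for a comparison of levels.

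Contactins are cell adhesion molecules of neurons and glia, held to the outer membrane by a glycosylphosphatidylinositol anchor and built of immunoglobulin domains followed by fibronectin type III domains. They bind partners on the same cell or on a facing cell, among them contactin-associated proteins, receptor tyrosine phosphatases, L1-type molecules and amyloid precursor proteins. In the cerebellum the family is known for the growth and bundling of granule cell axons, for their synapses with Purkinje cells and for the nodal regions of myelinated axons.

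The 6 genes lie on 4 chromosomes in the mouse genome (GRCm38, GENCODE vM21), and all are protein coding. Cntn3, Cntn6 and Cntn4 follow each other on chromosome 6, at 102162655 to 102573101 on the minus strand, 104492790 to 104863406 on the plus strand and 105677660 to 106699310 on the plus strand, with gaps of 1920 kb and 814 kb between them. Cntn1 lies on chromosome 15 at 92051165 to 92341967 on the plus strand, and Cntn2 lies on chromosome 1 at 132509427 to 132543256 on the minus strand. Cntn5 lies on chromosome 9 at 9660891 to 10904775 on the minus strand. It spans 1244 kb, of which 0.364% is exonic, whereas Cntn2 spans 33.8 kb, of which 27.5% is exonic. Nuclear libraries count intronic reads, so that levels are compared between these genes per length of gene. This scale is rough, since exonic reads need not grow with the length of a gene. A gene of antisense type, 4930587E11Rik, lies inside Cntn3 at chromosome 6, 102266100 to 102336674, and whether its reads were kept apart by strand is not given in the sources used here.

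For Cntn5, the gene on which the contrast turns, the 250 bases upstream of 1 of its listed starts are shown from RefSeq (GRCm38.p6, chr9:10904776-10905025, minus strand, written 5′ to 3′), with every CG dinucleotide in capitals, a motif that reads the same on both strands and was counted without overlap.
Cntn5 upstream: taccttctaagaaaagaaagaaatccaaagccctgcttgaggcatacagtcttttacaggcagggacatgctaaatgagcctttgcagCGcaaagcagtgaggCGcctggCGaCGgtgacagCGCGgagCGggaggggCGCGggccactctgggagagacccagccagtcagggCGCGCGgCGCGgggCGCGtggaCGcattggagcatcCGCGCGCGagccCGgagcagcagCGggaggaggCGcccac
RefSeq lists 2 starts for Cntn5, and these values hold for the window shown, whose start matches the 5′ end of the gene in GENCODE. The window held 24 CG dinucleotides, against a median of 6 over 32851 listed windows of the same length, of which 92.1% held at least 1 and 12.0% held at least as many as Cntn5. Its G and C content was 64.8%, against a median of 52.4%. It overlapped no Cntn5 exon, and the gene of antisense type Gm32710, at chromosome 9, 10904345 to 10907818, spans it.

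In all, 48237 of 57958 barcodes carried one of 16 cell types in the deposited annotation, from 9153 to 13835 nuclei and from 37700625 to 52902902 UMIs (unique molecular identifiers, each standing for 1 captured RNA molecule) per library. Levels are UMIs summed over the nuclei of a type in a library, scaled to 1000000 UMIs of those nuclei (CPM). Of the annotated barcode sequences, 30 to 60 were shared by each of 6 pairs of libraries. Tbx1 itself had 4, 11, 10 and 13 UMIs in the whole of WT 1, Tbx1+/- 1, WT 2 and Tbx1+/- 2, too few to check the genotype labels. The GNP label was borne out by its markers: the summed level of 8 GNP genes was 1711 to 1822 CPM in GNPs, above the 1076 to 1175 CPM of the next type, and the proliferation list stood at 1610 to 2130 CPM. The type annotated as Progenitors had 66.0 to 122 CPM of the GNP list and 103 to 259 CPM of the proliferation list, with 4811 to 6366 CPM of the list for differentiated granule neurons, so its label was not matched by these markers and is used here only as a name. The type annotated as GABA.interneuron had 502 to 608 CPM of the GABA interneuron list, below the 1873 to 2010 CPM of the differentiated GABA interneurons.

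Cntn5, known from the auditory system as an axonal adhesion molecule, was highest in the GABA.interneuron type, at 4498 CPM in WT 1, 4771 in Tbx1+/- 1, 6133 in WT 2 and 7219 in Tbx1+/- 2. Purkinje cells followed at 2673, 2875, 3448 and 3288 CPM, and the type annotated as Progenitors at 1822, 1886, 2045 and 2209 CPM, and the ranges of these 3 types did not overlap. Differentiated GABA interneurons reached 445, 473, 718 and 689 CPM, and differentiated granule neurons 380, 388, 477 and 474 CPM, with overlapping ranges. GNPs were the lowest of the 16 types, with a mean of 30.2 CPM ± 13.1 (SD, n = 4 libraries), and their range overlapped that of pericytes just above them. The mean level of the GABA.interneuron type was 187 times that of GNPs. Between GNPs and the differentiated granule neurons that arise from them, the level of Cntn5 was 12.8, 23.2, 9.95 and 18.0 times higher in the 4 libraries. These ratios rest on a GNP level that was not separated from the background in immune nuclei described further on, so their size is uncertain, as is that of the ratio of 187.

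Cntn4, an axon guidance molecule that binds amyloid precursor protein, had a similar order of types. It was highest in the GABA.interneuron type at 1667, 1753, 2622 and 2803 CPM, then in the type annotated as Progenitors at 1205, 1361, 1312 and 1958 CPM and in Purkinje cells at 715, 864, 988 and 1089 CPM. GNPs had 21.3, 16.6, 19.5 and 18.9 CPM of Cntn4, and differentiated granule neurons 62.2, 53.4, 74.5 and 79.2 CPM. Both batch 2 libraries were above both batch 1 libraries in the GABA.interneuron type. Cntn6, known for its role at synapses between parallel fibres and Purkinje cells, was instead highest in Purkinje cells at 676, 866, 918 and 964 CPM, above every library of the next type. Cntn6 was the only member that was higher in GNPs than in differentiated granule neurons in all 4 libraries. It stood at 45.1, 44.1, 48.6 and 70.5 CPM in GNPs and 26.9, 23.2, 27.8 and 36.2 CPM in differentiated granule neurons, a mean ratio of 0.552 ± 0.0385 (SD, n = 4). Immune nuclei, which should lack the contactins, had 54.3, 26.9, 34.9 and 70.0 CPM of Cntn6, about the level in GNPs. Their Cntn3 stood at 69.4, 8.97, 23.2 and 29.7 CPM, with a mean of 32.8 CPM, and Cntn4 had a mean of 48.8 CPM. Both means were above those in GNPs. In each library 5 immune nuclei held at least 75.8% of the UMIs of each of these genes, so this background rests on few nuclei. Astroglia had 12.7, 7.87, 8.71 and 13.6 CPM of Cntn6, below GNPs in every library, but more Cntn3 and Cntn4 than GNPs on average. The GNP levels of Cntn3 and Cntn4 were thus not separated from background. For Cntn6 this depended on the type set beside GNPs. The plot of Cntn5, Cntn4 and Cntn6 by library shows the shared high types and the wide scatter between libraries in the types of lowest level.

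**Figure D1:**
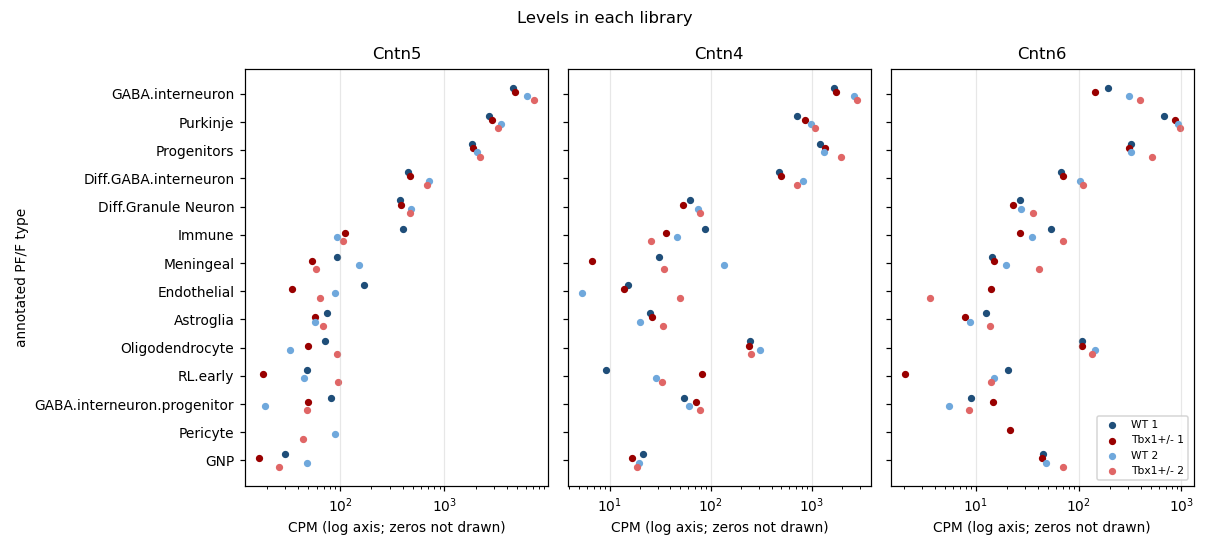
Level of Cntn5, Cntn4 and Cntn6 in 14 annotated PF/F types, as CPM on a log axis, with 1 point per library (blue, WT; red, Tbx1+/-; dark, batch 1; light, batch 2) and zeros left out. Cntn5 ran from 4498 to 7219 CPM in the GABA.interneuron type down to 16.7 to 47.9 CPM in GNPs.

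Cntn1, which with Cntnap1 forms the junctions between axon and myelin beside the node of Ranvier, was spread widely, with a mean of at least 96.9 CPM in each of the 16 types. It was highest in the oligodendrocyte lineage at 933, 1053, 1197 and 1137 CPM, whose range overlapped that of the type annotated as Progenitors, and differentiated granule neurons had 739, 746, 853 and 857 CPM. GNPs had 156, 147, 156 and 163 CPM, and the ratio of differentiated granule neurons to GNPs was 5.13 ± 0.303 (SD, n = 4). Immune nuclei had 184, 206, 217 and 184 CPM of Cntn1, above GNPs in every library, so the size of this ratio is uncertain. Cntn2, a marker of growing granule cell axons also known as TAG-1, was highest in differentiated granule neurons at 120, 134, 143 and 143 CPM. GNPs ranked 3 of 16 for Cntn2 with a narrow range, 83.5, 86.2, 82.0 and 84.2 CPM, and Purkinje cells were lowest at 18.4 CPM ± 4.77 (SD, n = 4). Cntn3 stood at 448, 730, 539 and 514 CPM in the type annotated as Progenitors and at 367, 318, 341 and 357 CPM in the GABA.interneuron type, without overlap of the ranges. Meningeal nuclei had 229, 261, 509 and 237 CPM of Cntn3, with WT 2 apart from the other 3 libraries. GNPs had 13.7, 10.2, 22.1 and 14.6 CPM of Cntn3, the place before last.

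**Figure D2:**
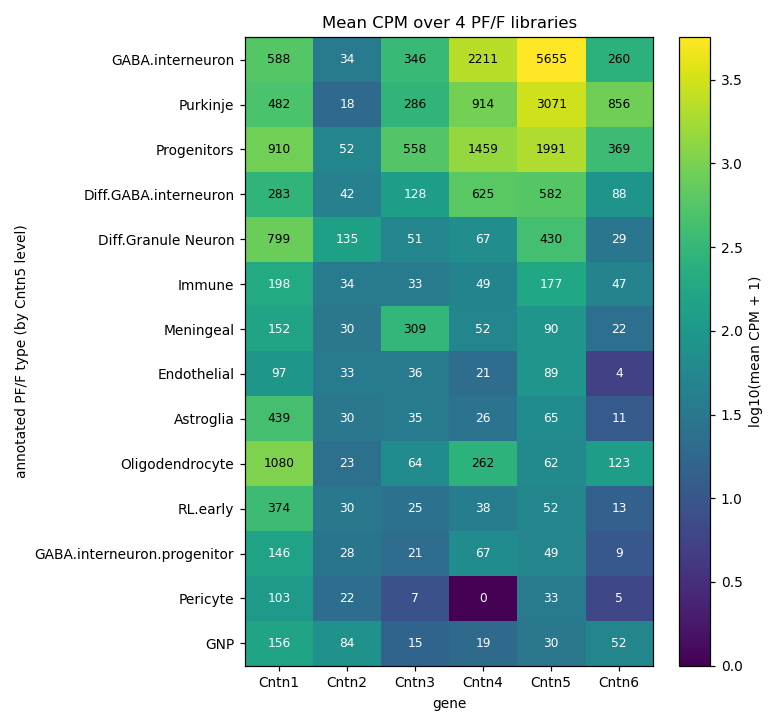
Mean level of the 6 contactins (columns) in 14 annotated PF/F types (rows, ordered by Cntn5) over 4 libraries; the numbers are CPM and the colour is log10(mean CPM + 1). Cntn4, Cntn5 and Cntn6 share high levels in the top 3 rows, Cntn1 is at 96.9 CPM or more in every row and Cntn2 is highest in differentiated granule neurons.

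Per 100 kb of gene, Cntn2 had the highest level in differentiated granule neurons, 400.4 CPM, ahead of Cntn1 at 275 CPM and Cntn5 at 34.6 CPM. In GNPs the order was also led by Cntn2, at 248 CPM per 100 kb, then Cntn1 at 53.5, Cntn6 at 14.1, Cntn3 at 3.69, Cntn5 at 2.43 and Cntn4 at 1.87. In Purkinje cells Cntn5 led at 247 CPM per 100 kb, with Cntn6 close behind at 231.

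Across the 14 types with at least 20 nuclei in every library, the level patterns of Cntn4, Cntn5 and Cntn6 were the most alike, as a description over types that share the same 4 libraries. Pearson's r of log2(mean CPM + 1) was 0.84 for Cntn4 and Cntn6, 0.82 for Cntn4 and Cntn5 and 0.78 for Cntn5 and Cntn6, whereas Cntn2 had r of -0.37 with Cntn4 and -0.04 with Cntn5. Among 8017 genes with at least 50 CPM in 1 type, those most like Cntn5 were Cyp4x1 (r = 0.98), Syt7 (r = 0.96) and Rhbdl1 (r = 0.96). Those most like Cntn4 were 4921534H16Rik (r = 0.95), Clvs2 (r = 0.94) and A530046M15Rik (r = 0.90). Those most like Cntn6 were Bean1 (r = 0.94), Gm47134 (r = 0.92) and Timm9 (r = 0.91). For Cntn1 they were Dnm3 (r = 0.89), Gm16054 (r = 0.88) and Brinp1 (r = 0.87), and for Cntn2 they were Uncx (r = 0.92), Sstr2 (r = 0.89) and Pcbp3 (r = 0.88). For Cntn3 the first was 4930587E11Rik (r = 0.996), the gene of antisense type inside it, followed by Chsy3 (r = 0.91) and Fam169a (r = 0.91).

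The petrous bone libraries were processed apart, and the class of highest level is given there for each gene on its own, in CPM not scaled to gene length. Cntn3 and Cntn4 were highest in the class annotated as CP6, at 2993 CPM ± 537 and 1888 CPM ± 405 (SD, n = 4 libraries), and the highest class for Cntn5 was CT1 at 234 CPM ± 23.0. Cntn6 reached 375 CPM ± 31.4 in the class CP3, Cntn1 57.2 CPM ± 9.59 in CP6, and Cntn2 had no class above 2.17 CPM.

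The genotypes were compared first in GNPs, the contrast on which Cntn5 was picked. Cntn5 stood at 29.7 CPM in WT 1 and 16.7 CPM in Tbx1+/- 1, and at 47.9 CPM in WT 2 and 26.3 CPM in Tbx1+/- 2. Both Tbx1+/- libraries were below both WT libraries, and the log2 ratio was -0.83 in batch 1 and -0.86 in batch 2. The fitted log2 change was -0.83 (SE 0.28), and edgeR's quasi-likelihood test over 15361 genes gave an adjusted p of 0.9997 (Benjamini-Hochberg; the unadjusted p was 0.0205, the place of Cntn5 by p being 27). With the replicate number as a block, the edgeR fit gave -0.83 (SE 0.12) and an adjusted p of 0.00777. Since Cntn5 was picked on this contrast within batch, these p-values are descriptions and no claim rests on them. The blocked fit leaves few degrees of freedom, so its SE leans on the spread shared across genes. Without the block 0 genes were called in GNPs (0.0% of those tested; adjusted p under 0.05 and a change above 1.5-fold), DESeq2 called 0 as well, and 139 genes (0.905%) had an unadjusted p under 0.05. With the block 3 genes were called (0.0195%), and the other two, Ttr and Ptgds, are abundant transcripts of choroid plexus and meninges and rose. They were named after their values were seen, at log2 changes of 1.27 for Ttr and 1.06 for Ptgds. The summed choroid plexus list stood at 238, 277, 246 and 434 CPM in GNPs of WT 1, Tbx1+/- 1, WT 2 and Tbx1+/- 2, and the meninges list at 19.3 to 32.7 CPM; their part in the Cntn5 difference was not tested. Without WT 2 the log2 change of Cntn5 was -0.46, and the 4 fits that left out 1 library each gave -0.46 to -1.18. With 2 libraries a genotype an exact permutation test of 1 gene cannot give a two-sided p below 0.333.

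A large share of the Cntn5 UMIs of GNPs lay in few nuclei, though not in every library. In all, 36 of 9404 GNP nuclei (0.383%) had 3 or more Cntn5 UMIs, a bound set after the values were seen, and they held 372 of 781 Cntn5 UMIs (47.6%). WT 1 had 11 such nuclei with 79 UMIs, Tbx1+/- 1 had 2 with 9 UMIs, WT 2 had 14 with 204 UMIs and Tbx1+/- 2 had 9 with 80 UMIs. One nucleus of WT 2 alone held 79 UMIs. In the remaining nuclei Cntn5 stood at 17.6 CPM in WT 1, 15.6 in Tbx1+/- 1, 13.2 in WT 2 and 14.8 in Tbx1+/- 2, so that the groups overlapped, and the log2 ratio was -0.17 in batch 1 and 0.16 in batch 2. This division uses the gene itself and was not tested. The share in such nuclei was 6.92% in Tbx1+/- 1 and 41.4% to 72.9% in the other 3 libraries. By the same bound on their own UMIs, 422 GNP nuclei held 41.2% of the UMIs of Cntn1 and 108 held 16.6% of those of Cntn2. For Cntn3 23 nuclei held 29.3%, for Cntn4 19 held 18.9% and for Cntn6 93 held 27.4%. A fixed bound takes in more nuclei of a gene with more UMIs, so these shares are not like for like. Per library, the 5 GNP nuclei with the most UMIs held 3.86% to 5.25% of Cntn1, 13.9% to 40.3% of Cntn3 and 11.5% to 58.2% of Cntn5.

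**Figure D3:**
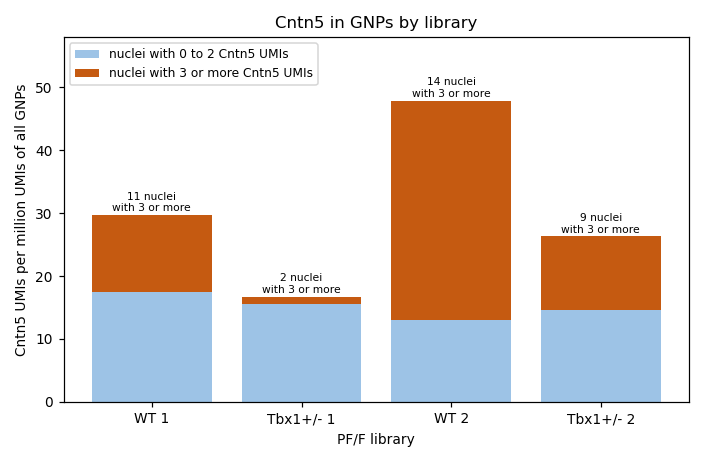
Cntn5 in GNPs of the 4 PF/F libraries, as CPM of all GNP UMIs of a library, divided into the part from nuclei with 0 to 2 Cntn5 UMIs (blue) and the part from nuclei with 3 or more (orange; their number stands above each bar). The blue parts lie between 13.0 and 17.4, and the orange parts between 1.16 and 34.9.

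In 3 of the 4 libraries the nuclei with 3 or more Cntn5 UMIs differed from the other GNPs in markers, and they were deeper, as a minimum number of UMIs favours deep nuclei by construction. Their median was 5881, 6355 and 5751 UMIs in WT 1, WT 2 and Tbx1+/- 2, against 2431, 2950 and 2868 UMIs in the remaining GNPs. In these 3 libraries they had 571 to 754 CPM of the GNP list, against 1720 to 1796 CPM in the remaining GNPs, and 516 to 956 CPM of the proliferation list, against 1629 to 2145 CPM. The list for differentiated granule neurons stood at 5426 to 7061 CPM in them and 3519 to 4492 CPM in the remaining GNPs. The Purkinje list was 606, 1131 and 586 CPM in them in WT 1, WT 2 and Tbx1+/- 2, against 668, 582 and 620 CPM, and so was higher only in WT 2. The GABA interneuron list was 238 to 367 CPM against 255 to 369 CPM. In Tbx1+/- 1 there were only 2 such nuclei, with a median of 3334 UMIs. They had 1350 CPM of the GNP list against 1823 CPM in the remaining GNPs, 3149 against 2101 CPM of the proliferation list, and 3899 against 3679 CPM of the list for differentiated granule neurons, so that proliferation markers went the other way there. The part of doublets, free RNA or nuclei of other types in these values was not tested.

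The GNPs were also divided without use of Cntn5. Among GNPs with at least 1 UMI of the proliferation genes (Mki67, Top2a, Cenpf, Cenpe, Hmgb2), 85.6% to 90.2% of GNPs, Cntn5 stood at 29.1 CPM in WT 1, 16.7 in Tbx1+/- 1, 25.5 in WT 2 and 27.4 in Tbx1+/- 2. The log2 ratio there was -0.80 in batch 1 and 0.11 in batch 2, and the edgeR log2 change was -0.31 (SE 0.24). Among GNPs with none, WT 2 alone was high, at 226 CPM, against 36.0, 16.7 and 17.2 CPM in WT 1, Tbx1+/- 1 and Tbx1+/- 2. Without the 8% of nuclei with the most UMIs in each library, the edgeR log2 change in GNPs was -0.50 (SE 0.17), and with the replicate block added it was -0.50 (SE 0.15) with an adjusted p of 0.999.

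Shares of nuclei gave little contrast between the genotypes. A Cntn5 UMI was found in 113 of 2365 GNPs of WT 1, 4.78% (exact binomial 95% interval 3.95% to 5.72%), and in 113 of 3112 of Tbx1+/- 1, 3.63% (3.00% to 4.35%). In batch 2 the shares were 4.71% (3.76% to 5.80%) in WT and 4.30% (3.48% to 5.24%) in Tbx1+/-. With each nucleus thinned to 1500 UMIs, leaving out 28 to 101 shallower GNPs per library, the shares were 2.80% and 2.36% in batch 1 and 2.76% and 2.37% in batch 2. Immune nuclei, which should lack the gene, had a Cntn5 UMI in 11.7%, 4.11%, 10.5% and 9.77% of nuclei at median depths of 2474 to 2841 UMIs, against 2294 to 2966 UMIs in GNPs. These immune shares rest on 12, 3, 8 and 13 nuclei with a UMI. Their exact binomial 95% intervals were 6.17% to 19.5%, 0.856% to 11.5%, 4.66% to 19.7% and 5.31% to 16.1%. The share in GNPs was thus at or below that background in every library, but in Tbx1+/- 1 and WT 2 it lay within the immune interval. It was also below the 33.1% to 37.6% of differentiated granule neurons and the share of Purkinje cells, at least 98.7% in every library. The intervals cover counting error only.

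The other 5 contactins were also compared in GNPs. Cntn1 had a log2 change of 0.01 (SE 0.15), Cntn2 of 0.06 (SE 0.13), Cntn3 of -0.51 (SE 0.28), Cntn4 of -0.19 (SE 0.17) and Cntn6 of 0.31 (SE 0.22), all with an adjusted p of 0.9997 in edgeR. Cntn3 was lower in Tbx1+/- in both batches, at log2 ratios of -0.43 and -0.59, but its groups overlapped, with WT 1 at 13.7 CPM below Tbx1+/- 2 at 14.6 CPM. Its log2 change was -0.14 without WT 2, -0.28 without Tbx1+/- 1, -0.78 without Tbx1+/- 2 and -0.81 without WT 1. Cntn6 was highest in Tbx1+/- 2 at 70.5 CPM, the other 3 libraries lying between 44.1 and 48.6 CPM. The groups did not overlap for Cntn2, which was higher in both Tbx1+/- libraries, or for Cntn4, which was lower in both, as was the case for 24.0% of all pairs of a gene and a type.

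Differentiated granule neurons, the postmitotic successors of GNPs, were the most numerous type with 18286 nuclei. No member was called there by edgeR with or without the block or by DESeq2, against 0 of 17091 genes (0.0%). Without the block 106 of these genes (0.62%) and none of the members had an unadjusted p under 0.05. With the block Cntn3 had an unadjusted edgeR p of 0.0307 (log2 change -0.21, adjusted p 0.9995). The share of all genes under 0.05 in that fit is not given here. Cntn5 had a log2 change of 0.03 (SE 0.22) and log2 ratios of 0.03 and -0.01 in the batches, at 27008 UMIs in all. Purkinje cells, with 29613 Cntn5 UMIs, had a log2 change of 0.03 (SE 0.31), and differentiated GABA interneurons 0.01 (SE 0.32).

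Over the 11 tested types other than GNPs, which come from the same libraries, 64 pairs of a contactin and a type had enough counts. Of these 0 were called by edgeR without the block, against 0.000756% of all pairs of a gene and a type, and DESeq2 called 0. The log2 changes ran from -1.95 to 1.48 with a median of 0.05, and 22 pairs were lower and 42 higher in Tbx1+/-. An unadjusted p under 0.05 was found for 5 pairs (7.81%), against 1.34% of all pairs, and all 5 lay in the immune, meningeal and RL.early types, which had 385, 706 and 585 nuclei in all. Over all 70 pairs, GNPs included, the CPM of the 2 genotypes did not overlap in 12 (17.1%), against 24.0% of all pairs.

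With the replicate block 2 of these 64 pairs were called, Cntn4 and Cntn5 in meningeal nuclei, against 0.0386% of all pairs and 0.24% of genes in meningeal nuclei. Meningeal Cntn4 stood at 30.6 CPM in WT 1, 6.76 in Tbx1+/- 1, 137 in WT 2 and 34.7 in Tbx1+/- 2. The groups overlapped, WT 1 being below Tbx1+/- 2, while within each batch Tbx1+/- was lower, and the blocked log2 change was -2.00 (edgeR adjusted p 1.41e-06) against -1.95 (SE 0.62, adjusted p 0.9999) without the block. These values rest on 17, 5, 69 and 28 UMIs, of which the 5 nuclei with the most held at least 82.1% in each library, and 1 nucleus of WT 2 held 34. Meningeal Cntn5 stood at 93.6, 54.1, 152 and 59.5 CPM, both Tbx1+/- libraries lying below both WT libraries, with a log2 change of -1.10 (SE 0.29) without the block and -1.10 (adjusted p 0.00243) with it. Here too 5 nuclei held 76.9%, 62.5%, 93.5% and 64.6% of the UMIs, and 1 nucleus of WT 2 held 39 of its 77. Without the 8% of nuclei with the most UMIs, the blocked log2 change of meningeal Cntn5 was -0.57 with an adjusted p of 0.9998. With the block and nuclei of at least 2000 detected genes, meningeal Cntn4 was called at -2.06 (edgeR adjusted p 0.0314), and meningeal Cntn5 was not called. Leaving out 1 library moved these values in both directions, in fits where the lone library of a genotype is assumed to vary like the other genotype and where batch and genotype are mixed, so that their p-values are no firmer than those above. Meningeal Cntn4 was at -0.54 without WT 2 and -1.25 without Tbx1+/- 1, neither of which was called, and at -2.65 without WT 1 (edgeR adjusted p 1.97e-09) and -3.54 without Tbx1+/- 2 (adjusted p 2.2e-06), and with low counts kept it was called at -1.91 (adjusted p 0.000247). Meningeal Cntn5 was at -0.73 without WT 2, and of the 4 such fits it was called only without WT 1, at -1.39 (adjusted p 0.0106). Summed marker lists of other types also differed between libraries in meningeal nuclei. The Purkinje list stood at 864, 875, 1174 and 824 CPM in WT 1, Tbx1+/- 1, WT 2 and Tbx1+/- 2, with WT 2 apart. Its members did not move together. Foxp2 stood at 490, 464, 725 and 471 CPM in the same order, and Car8 was also highest in WT 2, at 71.3 CPM. Calb1, at 91.8, 56.8, 31.7 and 42.2 CPM, and Pcp2, at 64.8, 83.9, 25.7 and 27.3 CPM, were lowest in WT 2. The choroid plexus list stood at 117, 185, 85.1 and 267 CPM, higher in both Tbx1+/- libraries. The same blocked fit called 24 genes in meningeal nuclei, 16 lower and 8 higher. In order of size, the lower genes besides Cntn4 and Cntn5 began with Grm8 at -1.72, Gm30613 at -1.62 and Meis2 at -1.54. Gm20754 at -1.47, Dpp10 at -1.47, Epha5 at -1.46, Kctd16 at -1.22 and Brinp3 at -1.20 followed. The rest were Slit3 at -1.10, Gm15398 at -1.08, Dab1 at -1.07, Khdrbs2 at -1.003, Adamtsl3 at -0.96 and Pcdh15 at -0.77. The 8 higher genes were 8030451A03Rik at 1.88, Ttr at 1.502, Asic2 at 1.45, Stxbp6 at 1.26, Tnc at 1.11, Slc7a14 at 1.09, Ptgds at 1.06 and the haemoglobin gene Hbb-bs at 0.80. All were named after their values were seen. The part of these genes and lists in the change of Cntn4 and Cntn5 was not tested.

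The other 3 pairs with an unadjusted p under 0.05 also rested on few nuclei. Immune Cntn5 stood at 398 CPM in WT 1 against 112, 92.9 and 106 CPM in Tbx1+/- 1, WT 2 and Tbx1+/- 2, and 1 immune nucleus of WT 1 held 80 of its 132 UMIs. Without WT 2 it was called, at -1.90 (edgeR adjusted p 2.48e-05), a fit in which WT 1 alone stands for WT. Its log2 ratio was -1.83 in batch 1 and 0.19 in batch 2. Immune Cntn4, at 87.5, 35.9, 46.5 and 25.4 CPM, rested on 61 UMIs in all. RL.early Cntn4 was 9.29 CPM in WT 1, 81.4 in Tbx1+/- 1, 28.6 in WT 2 and 32.9 in Tbx1+/- 2, and 1 nucleus of Tbx1+/- 1 held 26 of its 40 UMIs. It was called without WT 2, at 2.53 (edgeR adjusted p 0.0457), and without Tbx1+/- 2, at 2.09 (adjusted p 0.0487). The choroid plexus list, which was highest in RL.early of all types, stood there at 1585 and 1507 CPM in WT 1 and WT 2 against 2960 and 4457 CPM in Tbx1+/- 1 and Tbx1+/- 2, and its part in the difference was not tested.

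**Figure D4:**
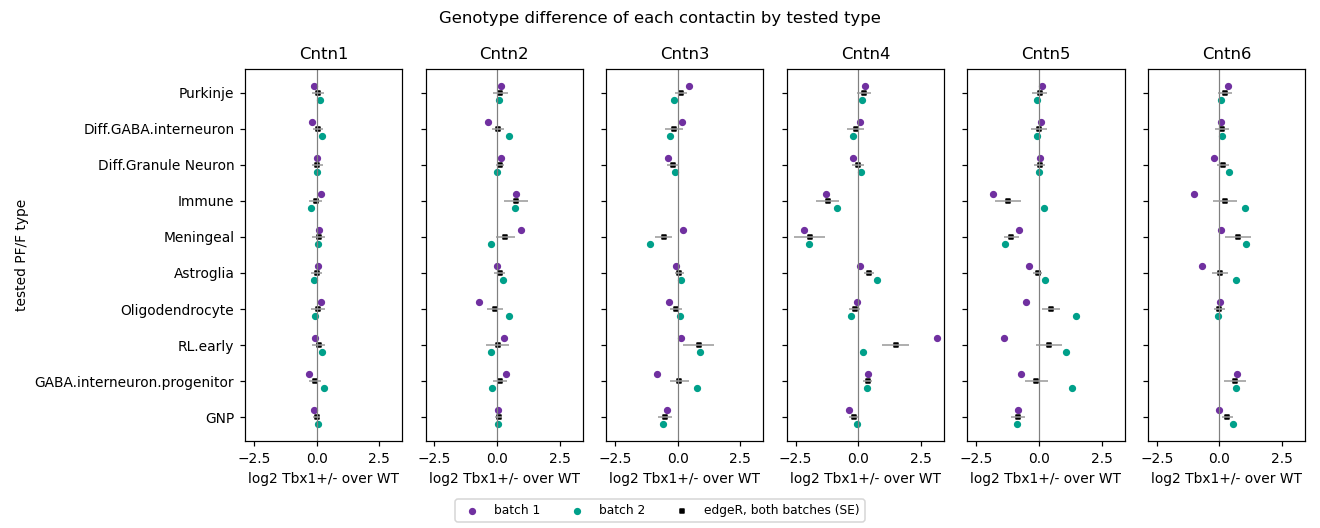
Log2 ratio of Tbx1+/- over WT for each contactin (panels) in 10 of the 12 tested PF/F types (rows, ordered by Cntn5 level), in batch 1 (purple), in batch 2 (green) and as fitted by edgeR over both (black squares; bars are the standard error). The fitted values span -1.95 to 1.48, both ends lying in the Cntn4 panel at the meningeal and RL.early rows, while Cntn5 lies at 0.03 in Purkinje cells and differentiated granule neurons.

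The binding partners were counted from a list of 23 genes. In GNPs 22 were tested, and 0 were called by edgeR with or without the block or by DESeq2. Without the block 0 had an unadjusted p under 0.05. Of all genes, 0.0% were called without the block, 0.0195% with it, and 0.905% had such a p without it. At these shares few or none of 22 genes would be counted. Their median log2 change was -0.02 against 0.00 over all genes tested, with 14 lower and 8 higher. In differentiated granule neurons 23 were tested, with 0 called (0.0% of all genes), 0 at an unadjusted p under 0.05 (0.62% of all genes) and a median log2 change of 0.02 against 0.00. The member of each family with the highest level in GNPs is given by value. App, the amyloid precursor protein, stood at 750, 837, 890 and 941 CPM in WT 1, Tbx1+/- 1, WT 2 and Tbx1+/- 2 (log2 change 0.14, SE 0.22), and Ptprg, a receptor phosphatase that binds several contactins, at 633, 671, 815 and 737 CPM (-0.02, SE 0.22). Both showed more difference between batches than between genotypes. Nrcam, of the L1 family, had a log2 change of -0.03 (SE 0.20), Cntnap2, which pairs with Cntn2 beside the paranode, of 0.11 (SE 0.22), and the Src-family kinase Fyn of 0.06 (SE 0.16). The latrophilin Adgrl1 had a log2 change of 0.07 (SE 0.14), Notch2 of 0.06 (SE 0.15) and the tenascin Tnc of -0.09 (SE 0.26).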

How the data were processed

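Nuclei were profiled by droplet 3′ sequencing, and the deposited tables hold UMI counts per gene and barcode, made by the authors with Cell Ranger 7.0.0 on mm10 with intronic reads counted. The methods name a correction for free RNA (SoupX) for the study's own analysis; the deposited counts are whole numbers and were taken as those from before it, which the sources used here do not state, so that levels and background shares rest on this reading. Cell types were taken from the annotation that the authors deposited, which followed a filter on detected genes, UMIs and mitochondrial reads and holds 48237 of 57958 barcodes; the rest were left out. UMI counts were summed per library and type and expressed as CPM. Types with at least 50 nuclei in every library were fitted across all genes with edgeR 4.0.16 (TMM factors, filterByExpr, quasi-likelihood test), with DESeq2 1.42.0 as an alternative, and p-values were adjusted per type (Benjamini-Hochberg). A call needed an adjusted p under 0.05 and a 1.5-fold change. The SE given with an edgeR log2 change was derived from the test, as the size of the change divided by the square root of the F statistic. The methods describe a test over single nuclei; libraries were used here, because nuclei of a library are not replicates, and with 2 pools a genotype p-values measure only the spread between pools. No separate step against doublets was added. The members and lists were chosen with earlier results of these data known. Named genes were the 6 members, partners of highest GNP level in each family, the 3 genes most alike in pattern, and markers. Genes called by the blocked fits in GNPs and meningeal nuclei were added after their values were seen.

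The study describes 2 batches of animals, and libraries of the same replicate number were taken as a batch: deviations from the genotype mean correlated across genes with r = 0.51 in GNPs, 0.62 in differentiated granule neurons and 0.29 in meningeal nuclei. The fits were tested on simulated data, in which edgeR called 80.5% of 200 GNP genes given a log2 change of 1, with 7 unchanged genes called. The simulation gave all genes the same spread and no difference between batches, and the changed genes were drawn from those with higher counts. This share is therefore no measure of how many real changes of that size the fits would call here. Alternatives were other size factors, no filter, the block, other choices of nuclei and each library left out. A pair of annotated types entered the fits and counts over types but is not reported here.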

Additional observations from a re-analysis of the deposited data

Results flagged for a closer look

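Cntn4 was flagged because its change between the genotypes went opposite ways in 2 cell types. Both Tbx1+/- libraries were below both WT libraries in GNPs and above both in astroglia. The share of all genes with such a pattern is not given here. Both levels were low, at means of 19.1 CPM in GNPs and 26.3 CPM in astroglia, below the background mean of 48.8 CPM in immune nuclei. Of the 12 tested types the groups did not overlap for Cntn4 in 6, among them also immune nuclei, where it was lower, and RL.early and GABA.interneuron.progenitor, where it was higher. The mean within-batch log2 changes of the 2 types differed by 0.61, and this difference was not tested. Neither change was called by edgeR: the log2 change was -0.19 (SE 0.17, adjusted p 0.9997) in GNPs and 0.42 (SE 0.19, adjusted p 1.00) in astroglia. The log2 ratio was near 0 in 1 batch of each type, at -0.05 in batch 2 of GNPs and 0.08 in batch 1 of astroglia, and groups did not overlap in 24.0% of all pairs of a gene and a type. In astroglia 5 nuclei held 35.3%, 36.6%, 39.2% and 47.5% of the Cntn4 UMIs in WT 1, Tbx1+/- 1, WT 2 and Tbx1+/- 2.

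The 9721 barcodes without a cell type, which no comparison used, also held contactin UMIs. Over these barcodes of the 4 PF/F libraries the level was 541 CPM for Cntn1, 70.6 CPM for Cntn2, 157 CPM for Cntn3, 452 CPM for Cntn4, 1174 CPM for Cntn5 and 241 CPM for Cntn6.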

How the results depend on the processing

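The direction of Cntn5 in GNPs was lower in Tbx1+/- in the 15 alternatives that did not select on the gene, with log2 changes from -2.95 among GNPs without a proliferation UMI to -0.31 among those with one. Among GNPs with fewer than 3 Cntn5 UMIs it was -0.02, with batch ratios of opposite sign. It was called only with the replicate block, at -0.83, and with the block and at least 2000 detected genes, at -1.15; leaving out each library in turn gave -0.46 to -1.18. The replicate number was taken as the batch, which the labels do not state, and these calls depend on it. They also give no support to the change, since Cntn5 was picked on this contrast. With the replicate block 3 genes were called in GNPs, and 2 contactins in the other types. Leaving out a library changed which genes were called in GNPs and, except without Tbx1+/- replicate 1, which contactins were called in the other types. Those fits assume the lone library to vary like the other genotype. Without a filter on low counts meningeal Cntn4 was called. The share of all pairs called in these fits is not given here, so nothing is read from their calls. Over the alternatives 18 to 51 of the 70 pairs were lower in place of 25, the 51 without Tbx1+/- replicate 2. The mean share of GNPs with a Cntn5 UMI was 4.35%, and 2.57% after thinning. Some changes that were not called turned sign. Leaving out each library in turn gave log2 changes in GNPs of -0.067 to 0.060 for Cntn1 (below 0 without WT replicate 2 or Tbx1+/- replicate 2) and -0.061 to 0.59 for Cntn6 (0.31 with all libraries, below 0 without Tbx1+/- replicate 2). In differentiated granule neurons these fits gave -0.10 to 0.16 for Cntn1, -0.051 to 0.25 for Cntn2, -0.54 to 0.071 for Cntn3, -0.36 to 0.24 for Cntn4, -0.15 to 0.23 for Cntn5 and -0.24 to 0.43 for Cntn6, and in meningeal nuclei -1.002 to 0.11 for Cntn3 (-0.55 with all libraries, above 0 without WT replicate 2). Cntn1 in GNPs was -0.023 without the 8% of nuclei with the most UMIs (-0.026 with the block) and -0.21 among GNPs without a proliferation UMI, Cntn2 in GNPs was -0.012 with the block and at least 2000 genes, and Cntn4 in differentiated granule neurons was 0.17 with at least 2000 genes. The cause was not tested. The alternatives that join the block with a choice of nuclei, and the bound of 3 UMIs, were chosen after seeing the data. Keeping only nuclei free of other types' markers left at most 6 GNPs per library and gave no value; it was not run for the other types. Meningeal Cntn4 was under the filter without the 8% of nuclei with the most UMIs. Depth limits Cntn5 in GNPs, which rests on 130 to 280 UMIs per library.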
